A study of Mus musculus with 4 samples.

Results

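Talins, kindlin-2, vinculin, the ILK-parvin complex and the adaptors around focal adhesion kinase form the cytoplasmic side of the focal adhesion, and 10 of their genes were followed through 4 RNA sequencing libraries of mouse B16F10 melanoma. The genes were Tln1, Tln2, Fermt2, Vcl, Zyx, Ilk, Parva, Ptk2, Pxn and Bcar1, taken by symbol from a table of 24527 gene symbols, and all 10 were found there. The set was chosen by a measured value, since Tln2 was among the genes with the lowest ratio of spheroid to 2D monoculture, so the ratios of that comparison are a description. Every other comparison shares the monoculture or the spheroid library with it, and no value here is independent support for the choice.

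Focal adhesions are the sites where integrins, the transmembrane receptors for extracellular matrix, are coupled to the actin cytoskeleton. Talin and kindlin bind the cytoplasmic tail of the integrin beta subunit and switch the receptor to its active state, and under tension talin exposes sites to which vinculin binds. In melanoma, as in other tumors of adherent cells, these proteins act in spreading, migration and survival on matrix.

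The 2D monoculture library came from B16F10 cells grown alone on plastic, the 2D co-culture library from B16F10 cells grown flat with NIH/3T3 mouse fibroblasts, the spheroid library from hanging-drop spheroids of the same cell pair, and the tumor library from subcutaneous B16F10 tumors of female C57BL/6 mice 1 year old. Per the study's methods, the cultured melanoma cells were the Linterna B16F10 line, which carries a green fluorescent protein in the cytoplasm, the NIH/3T3 cells of the spheroids were red fluorescent, and green cells negative for the dead-cell dye 7-AAD were sorted before RNA was isolated. The methods describe the tumor cells as sorted too, whereas the label of the tumor library speaks of snap-frozen material and gives no cell line, and all 4 libraries carry the genotype label WT. The methods speak of repeated RNA samples, at least for the tumors, and whether animals or cultures were pooled into a library is not stated. Each condition had 1 library, so no difference has a replicate check, no p-value is given, and every interval is a 95% interval that covers counting error only, in reads without molecular identifiers.

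The libraries held between 118896900 and 150028663 reads counted on genes, and the limit for a gene with a count of 0, taken as 3 reads, lay from 0.0185 to 0.0262 CPM. CPM is a gene's read count relative to the size of its library, here scaled with edgeR's TMM factors. Melanocyte markers were abundant in all 4 libraries, with summed levels from 11420 CPM (spheroid) to 20122 CPM (tumor) and none of the 8 markers at 0. Markers of other cells differed between the libraries. The 9 fibroblast markers summed to 8.66 CPM in monoculture, 655 CPM in co-culture and 13.9 CPM in the spheroid, with 3186 CPM in the tumor. Col1a2 alone gave 514 CPM of the co-culture sum, where the median marker was at 3.68 CPM. In the tumor library, 9 myeloid markers summed to 1992 CPM, 8 endothelial markers to 285 CPM, 8 smooth muscle and pericyte markers to 967 CPM and 7 skeletal muscle markers to 5071 CPM, with none at 0, against at most 7.06, 4.62, 102 and 13.0 CPM in any culture. Des alone gave 656 CPM of the smooth muscle and pericyte sum in the tumor. The 8 lymphoid and 4 keratinocyte markers summed to at most 8.06 and 1.11 CPM in any library. The markers at 0 in monoculture were Cd14 of the myeloid list, Ncr1 and Nkg7 of the lymphoid list, Myh4, Myh1 and Tnni2 of the muscle list and Krt5 and Krt14 of the keratinocyte list, and every fibroblast, endothelial and smooth muscle marker had reads in all 4 libraries. In these bulk libraries, fewer cells of a type and less RNA per cell cannot be told apart.

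All 10 genes were well covered, with a mean over the 4 libraries of at least 10 CPM. Their positions, in the GRCm38.p6 assembly (the mm10 build named in the submitters' processing notes), and the length of their longest annotated transcript differ widely. The talin genes have the longest transcripts of the set. Tln1 lies at chr4:43531513-43562583 with a transcript of 8393 bases, and Tln2 at chr9:67217085-67634045 with one of 12132 bases. Fermt2, the kindlin-2 gene, lies at chr14:45458792-45530310 (3293 bases), Vcl at chr14:20929383-21033676 (5267 bases) and Zyx at chr6:42349511-42360213 (3188 bases). Ilk has the shortest transcript, with 1795 bases at chr7:105736590-105742925, and Parva, the gene of its binding partner alpha-parvin, lies further along the same chromosome at chr7:112427706-112591688 (4454 bases). Ptk2, which encodes focal adhesion kinase, lies at chr15:73205102-73423820 (4675 bases), Pxn, the paxillin gene, at chr5:115491970-115555987 (3706 bases) and Bcar1, which encodes the adaptor p130Cas, at chr8:111710474-111743849 (3142 bases).

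Promoter sequence (RefSeq windows, GRCm38.p6) was at hand for 6 of the 10 genes, namely Tln1, Vcl, Zyx, Ilk, Fermt2 and Bcar1. These 250 bases before each start were searched for the CArG box, the site of serum response factor, and for the AP-1 site, spelled TGAGTCA or TGACTCA. The motifs were chosen after the levels had been seen, because serum response factor and AP-1 are textbook regulators of cytoskeletal genes, and both were read on both strands. Vcl and Fermt2 held a CArG box and Zyx an AP-1 site, and these 3 stretches are shown, with the motif in capitals, because they are the matches found. A CArG box occurred in 1.47% and an AP-1 site in 4.46% of 32851 windows of all genes.
Vcl, chr14:20929148-20929382, plus strand, up to the gene start: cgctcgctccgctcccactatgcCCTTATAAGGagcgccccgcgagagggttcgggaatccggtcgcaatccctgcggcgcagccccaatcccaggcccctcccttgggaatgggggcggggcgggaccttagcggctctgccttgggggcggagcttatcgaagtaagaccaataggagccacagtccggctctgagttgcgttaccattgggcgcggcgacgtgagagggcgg
Fermt2, chr14:45530250-45530279, minus strand: tccttcatttCCATAAAAGGgcagcgctcc
Zyx, chr6:42349696-42349725, plus strand: agtgcggacagTGAGTCAgttctccagcac
The motifs began 227 bases (Vcl), 204 bases (Fermt2) and 121 bases (Zyx) before the start at which the searched window ends. For Vcl that window ends at chr14:20929397, past the gene start at chr14:20929383 where the printed stretch stops. The Vcl motif is thus nearer to the gene start than 227 bases. For Fermt2 and Zyx the stretch lies inside the span of a longer annotated transcript. A match is a description of these letters and was not tied to any binding measurement.

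The talins stood first in the comparison of spheroid and 2D monoculture. Tln1, the talin of most tissues, was at 749.9 CPM in monoculture, 318.5 CPM in co-culture, 159.5 CPM in the spheroid and, in the tumor, 197.2 CPM. The monoculture library was thus the highest, and the spheroid the lowest. Tln2, its close relative best known from muscle and brain, was at 82.2 CPM in monoculture, 34.0 CPM in co-culture and 5.90 CPM (5.50 to 6.32) in the spheroid, with 29.7 CPM in the tumor. It shared that order of extremes, and its 13.9-fold range over the 4 libraries was the widest of the 10 genes. On the log2 scale, the spheroid to monoculture difference was -3.80 (-3.91 to -3.70) for Tln2 and -2.23 (-2.25 to -2.21) for Tln1. In a ranking of the 9588 genes whose mean reached 10 CPM, with 1 CPM added to both values, Tln2 was the 4th from the lowest at -3.59, between Mdn1 at -3.70 and Sptan1 at -3.58. Tln1 was at rank 294 in the same order.

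**Figure D1:**
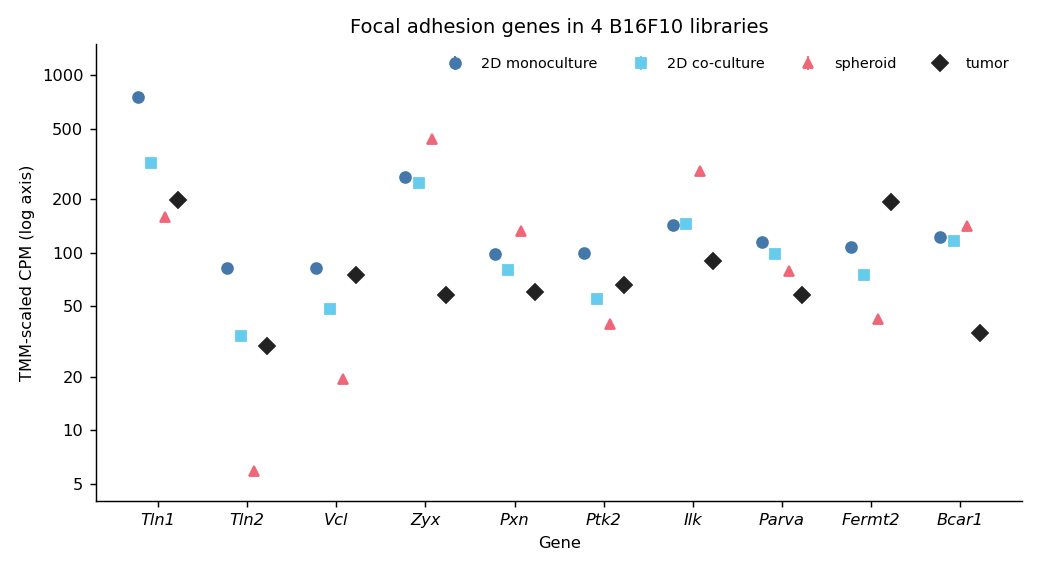
TMM-scaled CPM on a log axis for the 10 focal adhesion genes in the 4 libraries, with 1 point per library and bars for the 95% counting interval. Tln2 in the spheroid, at 5.90 CPM, is the lowest point, and Zyx, Ilk, Pxn and Bcar1 have their highest point in the spheroid.

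The balance between the talins can be read inside each library, where no scaling between libraries enters. Tln2 gave 9.88% (9.71 to 10.05) of all talin reads in monoculture, 9.64% (9.35 to 9.93) in co-culture, 3.57% (3.33 to 3.82) in the spheroid and 13.1% (12.7 to 13.4) in the tumor, by exact Clopper-Pearson intervals. The intervals of the 2D cultures overlap each other, and those of the spheroid and the tumor lie apart from them and from each other. The spheroid library therefore held the smallest share of the Tln2 paralog. These shares are not corrected for GC content or length. After that correction the log2 difference of spheroid to monoculture was -3.28 for Tln2, beside -2.42 for Tln1. The handling of reads that match both talin genes is not known here.

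In the cultures kindlin-2 had the order of the talins, while its level in the tumor stood above all its culture levels. Fermt2, whose product activates integrins together with talin, was at 107 CPM in monoculture, 74.6 CPM in co-culture, 42.5 CPM in the spheroid and, in the tumor, 193 CPM. The tumor was the highest library and the spheroid the lowest, and Fermt2 was the only one of the 10 genes with a higher level in the tumor than in monoculture, by a log2 difference of 0.84 (0.82 to 0.87). That holds for the TMM scaling without correction, since Vcl, at -0.13, was at 0.11 with total counts and 0.12 with upper quartiles, and at 0.40 with GC content and length removed, where Pxn was at 0.46. Against Tln1 in the same library, Fermt2 had 0.143 reads per Tln1 read in monoculture, 0.234 in co-culture, 0.266 in the spheroid and 0.978 in the tumor. Neither GC content nor length is corrected for in these ratios. For spheroid to tumor, the log2 differences corrected for both were close, at -1.496 for Fermt2 and -1.432 for Tln1. Length alone removed left them apart, at -2.64 and 0.65. For tumor to monoculture, the values corrected for both were 0.82 for Fermt2 and -0.64 for Tln1. The gap between spheroid and tumor in this ratio thus depends on the correction. Fibroblasts and muscle cells also express kindlin-2, the tumor library held the most of their markers, and the part of those cells in the level was not tested.

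Vinculin and zyxin both sit in the actin-linked layer of the adhesion, and their levels differed in opposite directions between spheroid and monoculture. Vcl, whose product binds stretched talin and actin and whose promoter stretch with a CArG box is printed above, was at 81.8 CPM in monoculture, 48.3 CPM in co-culture and 19.4 CPM in the spheroid, with 74.5 CPM in the tumor. Its level was thus close in monoculture and tumor and 4.22-fold lower in the spheroid than in monoculture, with a log2 difference to monoculture of -2.08 (-2.14 to -2.02). Zyx, which encodes a LIM domain protein recruited to adhesions and stress fibres under tension and whose printed stretch holds an AP-1 site, was at 267 CPM in monoculture, 246 CPM in co-culture, 439 CPM in the spheroid and, in the tumor, 57.9 CPM. Here the spheroid was the highest and the tumor the lowest, and the log2 difference of spheroid to monoculture was 0.72 (0.70 to 0.74), or 0.0027 with GC content and length removed. In reads of the same library, there were 3.27 Zyx reads per Vcl read in monoculture, 5.09 in co-culture, 22.7 (21.8 to 23.6) in the spheroid and 0.777 (0.756 to 0.798) in the tumor. The tumor was the library with fewer reads of Zyx than of Vcl. These ratios are not corrected for GC content or length. After that correction the log2 difference of spheroid to monoculture was -1.30 for Vcl, beside 0.0027 for Zyx.

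**Figure D2:**
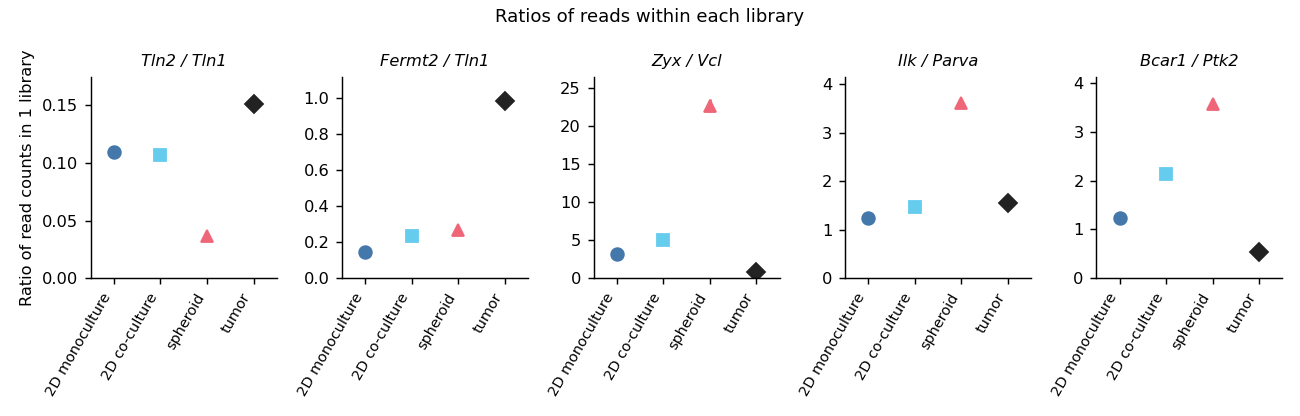
Ratios of the read counts of gene pairs inside each of the 4 libraries, with bars for the 95% counting interval and each axis starting at 0. The ratio of Zyx to Vcl is 22.7 in the spheroid and 0.777 in the tumor, and the ratio of Fermt2 to Tln1 is highest in the tumor. The ratios are not corrected for length or GC content.

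Ilk and Parva encode partners that, with PINCH, form a complex beneath the integrin tail. Ilk, the integrin-linked pseudokinase, was at 143 CPM in monoculture, 145 CPM in co-culture and 287 CPM in the spheroid, with 90.1 CPM in the tumor. The 2D cultures could not be told apart by counting error, with a log2 difference of 0.02 (-0.01 to 0.05), and the spheroid stood above both. Parva was at 114 CPM in monoculture, 98.9 CPM in co-culture, 79.2 CPM in the spheroid and, in the tumor, 58.1 CPM. Its range, 1.97-fold over the 4 libraries, was the narrowest of the set, and the spheroid lay below the 2D cultures rather than above them. With GC content and length removed that direction turned, to a log2 difference of 0.23 against monoculture and 0.13 against co-culture. The reads of Ilk per read of Parva went from 1.25 in monoculture and 1.46 in co-culture to 3.62 in the spheroid, and were 1.55 in the tumor. This ratio is not corrected for length or GC content, in which the genes differ. After that correction the log2 difference of spheroid to monoculture was 0.41 for Ilk, beside 0.23 for Parva. Ilk shares much of its annotated exonic sequence with Taf10 on the opposite strand, 1533 of 1877 bases (81.7%) in GENCODE, although the RefSeq spans share 32 bases. Taf10 was at 53.4, 56.1, 99.7 and 64.3 CPM in monoculture, co-culture, spheroid and tumor. The strand setting of the counting is not known here, and without strand the reads of such a pair cannot be told apart. Vcl and Ap3m1 also overlap on opposite strands, over 2090 of 5267 exonic bases (39.7%) in GENCODE, and their RefSeq spans share 571 bases. Ap3m1 was at 70.9, 47.1, 31.7 and 107 CPM in the same order of libraries.

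The signalling arm consists of the kinase and its adaptors. Ptk2, the kinase that autophosphorylates when integrins cluster, was at 99.0 CPM in monoculture, 54.6 CPM in co-culture and 39.6 CPM in the spheroid, with 65.6 CPM in the tumor. It was highest in monoculture and lowest in the spheroid, with a log2 difference of -1.32 (-1.37 to -1.28). Pxn, the scaffold that binds the kinase and vinculin, was at 98.7 CPM in monoculture, 79.6 CPM in co-culture, 133 CPM in the spheroid and, in the tumor, 59.8 CPM. Bcar1, a substrate of the kinase and of SRC, was at 122 CPM in monoculture, 116 CPM in co-culture and 141 CPM in the spheroid, with 35.1 CPM in the tumor. Both adaptors were highest in the spheroid and lowest in the tumor in CPM. With GC content and length removed, the log2 difference of spheroid to monoculture turned to -0.21 for Pxn and -0.56 for Bcar1, beside -0.45 for Ptk2, and that of spheroid to co-culture turned to -0.39 for Bcar1. Per read of Ptk2, Bcar1 had 1.23 reads in monoculture, 2.13 in co-culture, 3.56 in the spheroid and 0.535 in the tumor. The same count for Pxn was 0.997, 1.46, 3.35 and 0.911. These counts per read of Ptk2 are not corrected for GC content or length. After that correction Bcar1, at -0.56, was not above Ptk2, at -0.45, in the comparison of spheroid and monoculture.

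Between genes, levels were set side by side per kilobase of the longest transcript. In monoculture, Tln1 (89.3 CPM per kb), Zyx (83.8) and Ilk (79.4) led, followed by Bcar1 (38.8), Fermt2 (32.6), Pxn (26.6), Parva (25.7), Ptk2 (21.2), Vcl (15.5) and Tln2 (6.77). In the spheroid Tln1 stood at 19.0 CPM per kb, behind Ilk (159.9), Zyx (138), Bcar1 (44.9) and Pxn (35.8), and Tln2 was again last with 0.486. In the tumor Fermt2 led with 58.6 CPM per kb, ahead of Ilk (50.2) and Tln1 (23.5). The intervals of neighbours in the order overlapped for Tln1 and Bcar1 (37.9 and 37.0) and for Fermt2, Parva and Pxn (22.7, 22.2 and 21.5) in co-culture, and for Vcl and Ptk2 (14.1 and 14.0) in the tumor. Neighbours elsewhere in the 4 orders lay apart in counting error, which says nothing of the spread between cultures or animals.

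For the comparison of spheroid and 2D monoculture, which asks how growth in 3D with fibroblasts differs from growth alone on plastic, 5 of the 10 genes were over 2-fold lower in the spheroid and 1 was over 2-fold higher. Over the 12508 genes that had a mean of 1 CPM or more and more than 3 reads in a library of the pair, 21.7% were over 2-fold lower and 15.9% over 2-fold higher. The lower genes were Tln2, Tln1, Vcl, Fermt2 (-1.34 on the log2 scale) and Ptk2 (-1.32), and the higher gene was Ilk, whose log2 difference of 1.01 (0.98 to 1.03) lay at the threshold and was 0.89 with total counts and 0.92 with TMM factors of these libraries alone. Parva (-0.53), Bcar1 (0.21), Pxn (0.43) and Zyx (0.72) were within 2-fold. The median of the 10 genes was -0.93 against 0.10 over all genes. Since the set was selected on this comparison, the counts stand beside the background and nothing is read from them.

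**Figure D3:**
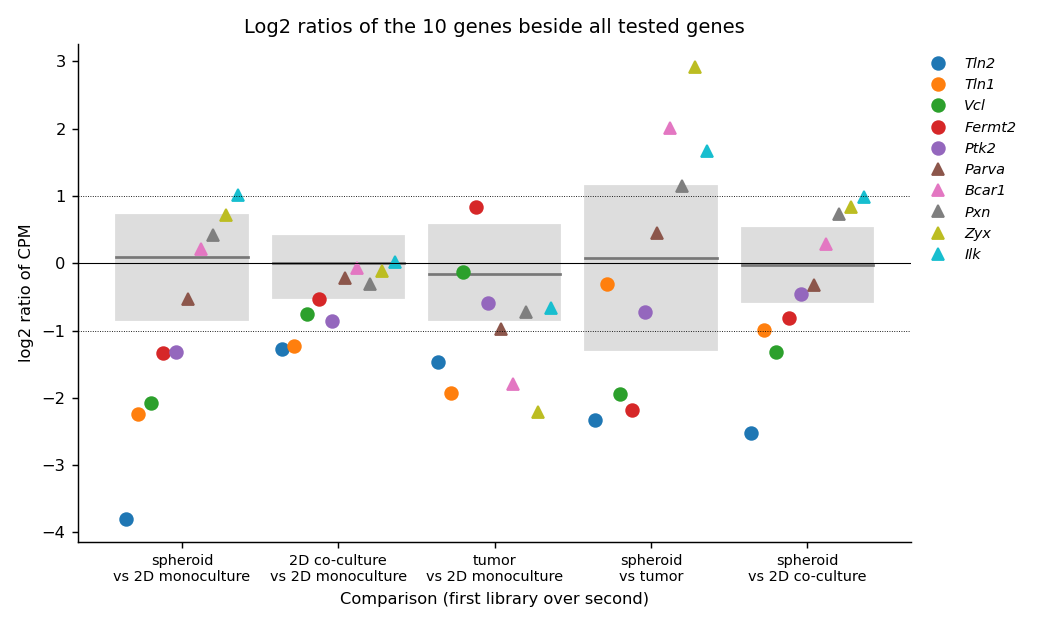
Log2 ratios of CPM of the 10 genes in the 5 comparisons, 1 point per gene, over a grey band and line for the quartiles and the median of all genes tested, with dotted lines at a 2-fold difference. In the comparison of spheroid and 2D monoculture the genes spread from -3.80 for Tln2 to 1.01 for Ilk, and in that of 2D co-culture and 2D monoculture from -1.27 to 0.02.

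Transcript length went along with this comparison across all genes, and the 10 genes have to be read beside it. Over 12366 genes with a length, Spearman's correlation of the log2 ratio with length was -0.396, and that with GC content was 0.468. These are correlations across genes, which are not independent replicates. With genes put into 10 classes of equal number by length, the median log2 ratio went from 0.67 in the shortest class (median length 944 bases) to -1.06 in the longest (8164 bases). The talin genes belong to the longest class, in which Tln2 stood at percentile 0.801 and Tln1 at percentile 16.4. Vcl stood at percentile 11.7 of its class, Fermt2 at 14.0 and Ptk2 at 21.2, and Ilk, from a class of short genes, at 80.7. With the median of finer length classes removed, 20 in number and at -1.27 for the longest, the log2 difference was -2.53 for Tln2, -0.96 for Tln1, -1.54 for Vcl, -1.48 for Fermt2, -0.94 for Ptk2 and 0.67 for Ilk, so that Tln1, Ptk2 and Ilk came within 2-fold. With classes of GC content and length together, it was -3.28 for Tln2, -2.42 for Tln1, -1.30 for Vcl, -0.92 for Fermt2, -0.45 for Ptk2 and 0.41 for Ilk. Tln2, Tln1 and Vcl were then the genes over 2-fold lower. The part of RNA quality or library preparation in the relation to length was not tested.

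**Figure D4:**
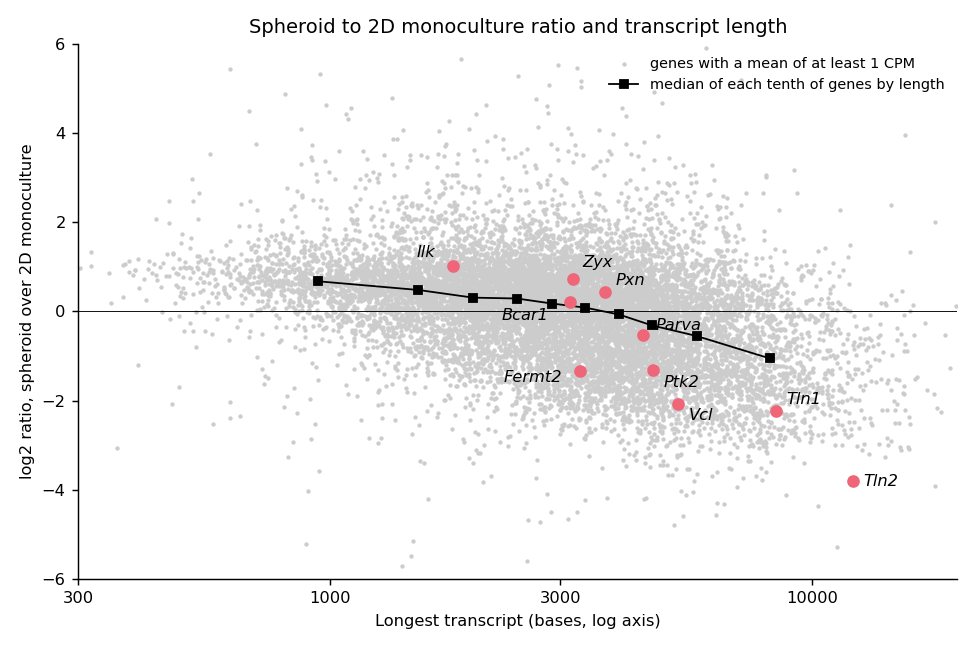
Log2 ratio of spheroid to 2D monoculture against the length of the longest transcript in bases (log axis), with all genes as grey points, the medians of the 10 length classes as a black line and the 10 focal adhesion genes in red. Genes beyond the ends of the axes are not drawn. The class medians go from 0.67 to -1.06, and Tln2 lies far below the median of the longest genes.

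Co-culture on plastic and monoculture differed less. None of the 10 genes was over 2-fold higher and 2 were over 2-fold lower in co-culture, beside 7.7% and 12.7% of 12559 genes. The lower genes were the talins, with log2 differences of -1.27 (-1.33 to -1.22) for Tln2 and -1.24 (-1.25 to -1.22) for Tln1. Ptk2 (-0.86), Vcl (-0.76) and Fermt2 (-0.53) came next, followed by Pxn (-0.31) and Parva (-0.21), and Ilk, Bcar1 and Zyx lay between -0.12 and 0.02. The median of the 10 genes was -0.42 and that of all genes 0.01. With the median of the length class removed, Tln1 was at -0.44 and Tln2 at -0.48, and no gene was over 2-fold lower. With GC content and length removed, Tln1 and Tln2 were each at -0.98, just within the threshold. All 9 fibroblast markers were higher in co-culture than in monoculture, and the part of fibroblast RNA in these levels was not tested.

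The tumor differed from monoculture mainly in Zyx, Tln1, Bcar1 and Tln2, the 4 genes that were over 2-fold lower. Their log2 differences were -2.21 (-2.24 to -2.17) for Zyx, -1.93 (-1.95 to -1.91) for Tln1, -1.80 (-1.84 to -1.76) for Bcar1 and -1.47 (-1.52 to -1.42) for Tln2. Over 2-fold lower were 20.3% of 12727 genes and over 2-fold higher 16.5%, a direction in which none of the 10 genes passed. Parva was at -0.98 (-1.01 to -0.94), at the threshold, and Pxn, Ilk and Ptk2 lay between -0.72 and -0.59. Vcl was at -0.13 (-0.17 to -0.10), the smallest difference of the set. The median of the 10 genes was -0.85 and that of all genes -0.15. With GC content and length removed, Zyx alone was over 2-fold lower, at -1.12. The markers of fibroblasts, myeloid, endothelial and muscle cells given above were higher in the tumor library, and the share of its reads from cells other than melanoma cells was not determined.

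Spheroid and tumor, the comparison that asks how far the model resembles the tumor, showed the widest spread. Zyx (2.92), Bcar1 (2.01), Ilk (1.67) and Pxn (1.15) were over 2-fold higher on the log2 scale in the spheroid, beside 28.4% of 12728 genes, although Pxn was at 0.79 with total counts. Tln2 (-2.33), Fermt2 (-2.18) and Vcl (-1.94) were over 2-fold lower, beside 29.2% of genes. Tln1 at -0.31 (-0.33 to -0.28), Ptk2 at -0.73 and Parva at 0.45 were within 2-fold. Total counts shifted these differences by -0.36, with which Ptk2 joined the genes over 2-fold lower. Zyx stood above 97.4% of all genes in this comparison, and Tln2 above 13.5%. The median of the 10 genes was 0.07 and that of all genes 0.08. With GC content and length removed, Bcar1 was at 0.03, Ilk at 0.79 and Pxn at -0.54, a change of sign, whereas Zyx at 1.30 was still over 2-fold higher and Tln2 at -2.86, Vcl at -1.49 and Fermt2, next to Vcl, were still over 2-fold lower. Tln1, at -1.43, joined the genes over 2-fold lower, whereas with length alone removed it was at 0.65.

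Spheroid and 2D co-culture, which were grown from the same pair of cell types, differed by over 2-fold in 2 genes, Tln2 at -2.53 (-2.64 to -2.42) and Vcl at -1.32 (-1.38 to -1.25) on the log2 scale. Both were lower in the spheroid, as were 12.8% of 12555 genes, and none of the 10 was over 2-fold higher, as were 12.3%. Tln1 at -0.998 (-1.02 to -0.97) and Ilk at 0.99 (0.96 to 1.02) lay on the threshold, their intervals including a difference of 2-fold. Zyx was at 0.84, Pxn at 0.74 and Bcar1 at 0.28, and Fermt2, Ptk2 and Parva at -0.81, -0.46 and -0.32. The median of the 10 genes was -0.39 and that of all genes -0.02. With GC content and length removed, the genes over 2-fold lower were Tln2 (-2.15) and Tln1 (-1.25), and Vcl was at -0.86. The fibroblast markers summed to 655 CPM in co-culture and 13.9 CPM in the spheroid, and the part of fibroblast RNA in these differences was not tested.

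The wider adhesion was described by 62 partner genes in 5 roles, of which 57 had a mean of at least 1 CPM. In the comparison of spheroid and monoculture, 5 of the 56 partners with a ratio were over 2-fold higher and 12 over 2-fold lower, with a median log2 difference of -0.26. These are 8.93% and 21.4% of the partners, beside 15.9% and 21.7% of all genes, so that the share lower was near the background. Among the actin linkers, Flna, the filamin A gene, was at 864 CPM in monoculture and 193 CPM in the spheroid (-2.16) and Sorbs2 at 1.59 and 0.0808 CPM (-4.30, with a wide interval of -5.32 to -3.44 from few reads). Vasp, which encodes an actin polymerase brought to adhesions by zyxin, was at 140.1 and 375 CPM (1.42). Among the LIM domain adaptors, relatives of zyxin and paxillin, Trip6 (1.16) and Pdlim7 (1.09) were higher and Lpp (-1.85) was lower. Lims1, the PINCH-1 gene of the ILK complex, was at 143 and 68.5 CPM (-1.06), whereas Parvb, which encodes beta-parvin, was at 190.4 and 363 CPM (0.93).

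Among the signalling partners, none was over 2-fold higher in the spheroid and 5 of 19 were over 2-fold lower, a share of 26.3% beside 21.7% of all genes. The 5 were Ptk2b (-1.57), which encodes the kinase most related to focal adhesion kinase, Dock1 (-1.92), the exchange factor for RAC downstream of p130Cas, Asap1 (-1.23), the gene of a GTPase-activating protein for ARF proteins, and the phosphatase genes Ptpn12 (-1.32) and Ptpn11 (-2.16). Src was at 152 CPM in monoculture and 243 CPM in the spheroid (0.68). Of 10 regulators of talin and kindlin, Kank1 (-1.43) and Kank4 (-1.87) were over 2-fold lower, and Fermt3 (2.16, 1.76 to 2.58) and Apbb1ip (1.64), both best known from blood cells and at or under 1.98 CPM in monoculture and spheroid, were over 2-fold higher.

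In co-culture against monoculture, 7 of the 57 partners were over 2-fold higher and 5 over 2-fold lower (median 0.06), or 12.3% and 8.77% beside 7.7% and 12.7% of all genes. In the tumor against monoculture the counts were 11 and 18 (median -0.63), or 19.3% and 31.6% beside 16.5% and 20.3%. In the spheroid against the tumor they were 19 and 16 (median 0.01), or 33.3% and 28.1% beside 28.4% and 29.2%, and against co-culture 4 and 11 (median -0.28), or 7.02% and 19.3% beside 12.3% and 12.8%. These comparisons share libraries and are not independent. In the tumor, 7 of 13 actin linkers were over 2-fold lower than in monoculture (53.8% beside 20.3% of all genes) and 2 were over 2-fold higher, Tns1 (5.44) and Sorbs2 (1.45). Among the lower were Enah at 438 CPM in monoculture and 88.6 CPM in the tumor (-2.31) and Actn4 at 775 and 221 CPM (-1.81). Lpxn and Pak1 were under 1 CPM in every culture and reached the mean of 1 CPM through the tumor library alone, where they were at 8.31 and 8.49 CPM. Fermt3, Sorbs2, Nedd9 and Tgfb1i1 also reached that mean only with their tumor levels, 18.2, 4.35, 12.6 and 7.07 CPM. All of these are among the partners over 2-fold higher in the tumor, so nothing is read from the partner counts that include the tumor. Lpxn, Pak1, Nedd9 and Tgfb1i1 were also over 2-fold higher in co-culture than in monoculture and than in the spheroid. Nothing is read from the partner counts that include the co-culture either. In the spheroid against monoculture, Fermt3 was counted as higher and Sorbs2 as lower.

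**Figure D5:**
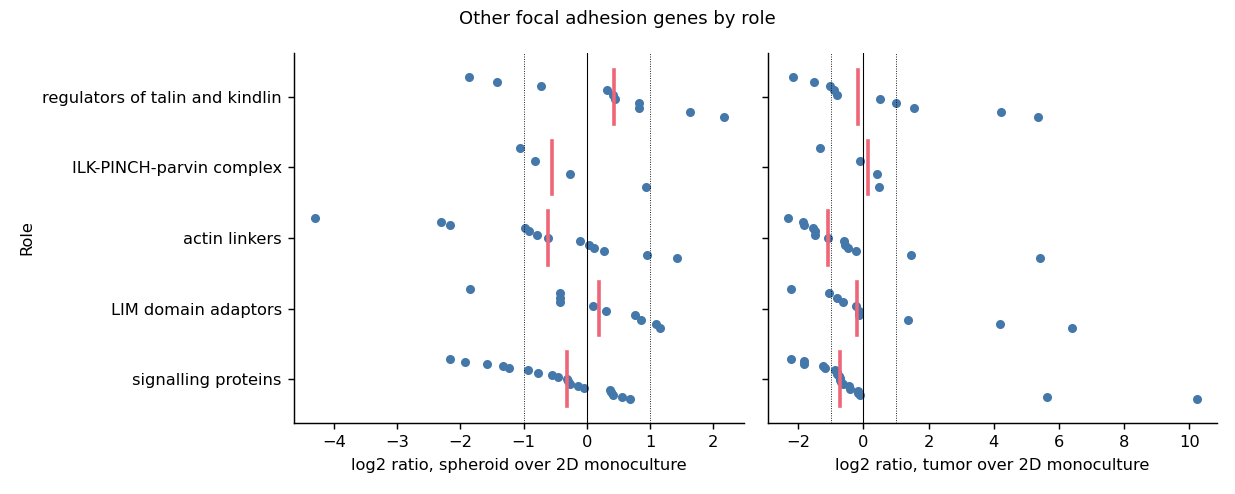
Log2 ratios of the partner genes by role for spheroid over 2D monoculture (left) and tumor over 2D monoculture (right), with 1 point per gene, the median of each role as a red bar and dotted lines at a 2-fold difference. In the left panel the signalling proteins have 5 of 19 genes over 2-fold lower (26.3%, beside 21.7% of all genes) and 0 over 2-fold higher (beside 15.9%).

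The genes with a profile most like that of each talin were sought among 9578 genes whose mean reached 10 CPM, by the root mean square difference of centred log2(CPM + 1) over the 4 libraries. For Tln1 they were Mdm2 (0.116), Prrc2c (0.119), Myo18a (0.121), Cald1 (0.152) and Trio (0.160), where 0 would be the same profile. For Tln2 they were Mcc (0.188), Pole (0.232), Mlph (0.292), Vim (0.344) and Ddx21 (0.352). Mlph, which encodes the melanosome transport protein melanophilin, was at 512 CPM in monoculture, 361 CPM in co-culture, 48.8 CPM in the spheroid and, in the tumor, 198 CPM. Vim, the vimentin gene, was at 2731, 1281, 423 and 1379 CPM in that order. Within the set of 10, the nearest pair was Pxn and Ilk (0.231), then Zyx and Bcar1 (0.329) and Vcl and Fermt2 (0.382), and the farthest was Tln2 and Zyx (1.93). With 4 libraries, such distances describe these libraries only.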

How the data were processed

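The authors deposited whole-number read counts for each gene symbol in 1 table without normalization, whose header names refGene. The submitters' processing notes name Trimmomatic, STAR, featureCounts and mm10, without versions or roles. For strand and for reads with several matches, the setting was not given in the sources used here. From the counts, TMM factors and CPM were computed with edgeR 4.0.16 in R 4.3.3, and ratios, exact intervals and figures with Python 3.11.15, numpy 2.4.6, pandas 2.3.3, scipy 1.17.1 and matplotlib 3.10.9. The factors were 0.984 for 2D monoculture, 0.963 for 2D co-culture, 0.908 for the spheroid and 1.16 for the tumor. Log2 ratios carry no pseudocount. Scaling and intervals were checked on simulated data. Lengths, GC content and exons came from GENCODE release 21 for mouse, basic transcripts, and 99.6% of tested genes had a length. Corrections removed the median log2 ratio of 10 by 10 classes of GC content and length, or of 20 length classes.

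The genes and lists were chosen with earlier results of these data known. Named are the 10 genes, the genes of fixed partner, receptor, actin and marker lists, the 5 genes with the profile nearest to each talin, and the neighbours of Tln2 in the ranking. Genes on the opposite strand of members were chosen after their values were seen. No test was made, since each condition has 1 library.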

Additional observations from a re-analysis of the deposited data

How the results depend on the processing

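No paired analysis was possible because there was a single library for every condition. For the same reason no replicate could be left out and no group was large enough to look for an outlying sample. For the members counting error is small, and the limits lie in the lack of replicates, in scaling and in the relation to length and GC content. The cause of the changes below was not tested. The number of members over 2-fold higher in the spheroid than in monoculture was 0 in place of 1 with total counts, with TMM factors of the 2 libraries compared, with the GC content and length correction and with the length correction, and the number lower was 3 in place of 5 with either correction. The number lower in co-culture was 0 in place of 2 with either correction. With GC content and length removed, the talins, each at -0.98, lay just within the threshold there. For the tumor against monoculture, the number higher was 1 in place of 0 with total counts, upper quartiles and the length correction, and the number lower was 1 in place of 4 with the GC content and length correction. For the spheroid against the tumor, the median of 0.07 became -0.29 with total counts, -0.061 with upper quartiles and -0.29 with the GC content and length correction, which also left 1 member higher in place of 4 and moved Pxn from 1.15 to -0.54, while the length correction moved that median the other way, to 0.50. For the spheroid against co-culture, the number higher was 1 in place of 0 with DESeq2 size factors (DESeq2 1.42.0). In that comparison total counts shifted Tln1, at -0.998, by -0.085, so that it joined the members over 2-fold lower. Against TMM, the median of all genes shifted by -0.12 (total counts) and 0.12 (upper quartiles) for spheroid to monoculture, by 0.12 (upper quartiles) for co-culture to monoculture, by 0.24 and 0.25 for tumor to monoculture, and by -0.36 and -0.13 for spheroid to tumor. Genes over 2-fold higher and lower in the tumor than in monoculture came to 20.2% and 13.8% with total counts and to 20.4% and 13.6% with upper quartiles, in place of 16.5% and 20.3%, and those in the spheroid against the tumor to 20.9% and 35.3% with total counts, in place of 28.4% and 29.2%.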

Other observations

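Integrin beta subunits, the receptors whose tails talin and kindlin bind, had their own order. Of 8 listed, 6 had a mean of at least 1 CPM. Of these, Itgb2 and Itgb7 reached that mean only with their tumor levels, 44.8 and 5.16 CPM. Itgb1, the partner of most matrix-binding alpha subunits, was at 546 CPM in monoculture, 397 CPM in co-culture, 189.6 CPM in the spheroid and, in the tumor, 789.6 CPM, with the tumor the highest and the spheroid the lowest library, as for Fermt2. Itgb3, a subunit of the vitronectin receptor, was at 117 CPM in monoculture, 62.8 CPM in co-culture and 458 CPM in the spheroid, with 33.1 CPM in the tumor. Itgb5 was at 65.2, 66.3, 106 and 27.2 CPM in the same order, so that both were highest in the spheroid and lowest in the tumor, as Zyx was. Against monoculture, Itgb3 was the only subunit of the 6 over 2-fold higher in the spheroid (1.97 on the log2 scale) and Itgb1 the only one over 2-fold lower (-1.53), beside 15.9% and 21.7% of all genes. The part of cells other than melanoma cells in the tumor levels was not tested.

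Of 23 listed actin genes and targets of serum response factor, 22 had a mean of at least 1 CPM. In the spheroid against monoculture, 6 were over 2-fold higher and 6 over 2-fold lower, 27.3% each way beside 15.9% and 21.7% of all genes, with a median log2 difference of 0.18. In co-culture against monoculture the counts were 9 and 2 (median 0.54), or 40.9% and 9.09% beside 7.7% and 12.7%, and in the tumor 11 and 3 (median 1.08), or 50% and 13.6% beside 16.5% and 20.3%. In the spheroid against the tumor they were 5 and 12 (median -1.68), or 22.7% and 54.5% beside 28.4% and 29.2%, and against co-culture 0 and 8 (median -0.61), or 0% and 36.4% beside 12.3% and 12.8%. Srf itself was at 107 CPM in monoculture, 132 CPM in co-culture and 235 CPM in the spheroid, with 79.9 CPM in the tumor, and Cyr61, a matrix-associated ligand of integrins, at 250.3, 589.7, 1094 and 74.7 CPM. Myh9, the non-muscle myosin heavy chain gene, was at 812, 251, 173 and 237 CPM. Acta2, a smooth muscle actin on the smooth muscle marker list too, was at 0.175 CPM in monoculture and 0.25 CPM in the spheroid, and at 43.6 CPM in co-culture and 100.5 CPM in the tumor. Actg2, Tagln and Cnn1 were on both lists as well. Of the 22 genes, 3 were under 1 CPM in every culture (Actg2, Myl9 and Fhl1) and entered through the tumor library alone. Fhl2 (0.849, 1.61 and 0.0808 CPM in monoculture, co-culture and spheroid) and Ankrd1 (0.997, 2.03 and 0.11 CPM) also passed only with their tumor levels. In the tumor these were 4.79 CPM for Fhl2 and 71.3 CPM for Ankrd1. All of these genes are among those over 2-fold higher in the tumor, so nothing is read from the counts that include the tumor. Myl9, Fhl1 and Ankrd1 were also among the genes over 2-fold higher in co-culture than in monoculture. In the spheroid against monoculture, Fhl1 was among the higher genes, and Fhl2 and Ankrd1 were among the lower. Tagln2 was among the higher there, at 0.0491 CPM in monoculture and 0.543 CPM in the spheroid. Nothing is read from the counts between cultures either. All 9 fibroblast markers were higher in co-culture and in the tumor than in monoculture, as were 8 of 8 smooth muscle and pericyte markers in the tumor and 4 of 8 in co-culture, and their part in these counts was not tested.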
